A study of Homo sapiens with 12 samples.

Results

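Ubiquitin and the p97 machinery were followed through 9 genes of the 14866 listed in each library: UBB, UBA1, ZFAND2A, VCP, NPLOC4, NSFL1C, FAF1, FAF2 and UBXN4. They were taken by symbol, all 9 were found, and all 9 passed the filter on low values. Ubiquitin is a small protein that is activated by an E1 enzyme and attached to other proteins in chains. The hexameric ATPase p97, encoded by VCP, pulls ubiquitinated proteins out of membranes and complexes so that the proteasome can degrade them, and it reaches these substrates through cofactors such as the NPL4-UFD1 pair. NPL4, encoded by NPLOC4, is a proposed target of the copper complex formed by disulfiram, which is thought to aggregate NPL4 in cells and stall p97 substrates. ZFAND2A, also called AIRAP, is an arsenite-inducible protein with AN1 zinc fingers that associates with the proteasome under proteotoxic stress.

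The genes were measured by poly(A) RNA sequencing in SHI-1 cells, a human acute myeloid leukaemia line that carries the MLL-AF6 fusion. Cells were exposed for 16 h to DMSO, to 0.3 µM disulfiram given with 1 µM copper (DSF), to 5 µM niclosamide (NSM), an anthelmintic that uncouples mitochondrial respiration, or to both drugs (DSF+NSM), with 3 libraries per group from separate experiments. Every group is a culture of the same established line, and the sources do not state whether the DMSO and NSM cultures also received copper. The effect of disulfiram can therefore not be told apart from that of copper.

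The values are normalized counts, that is, estimated reads per gene divided by a factor for the library. Libraries summed to 14.0 to 14.4 M under DMSO, 14.9 to 15.3 M under DSF, 16.5 to 17.5 M under NSM and 22.7 to 25.6 M under DSF+NSM, and an estimate from the smallest step between low values put the depth at 10.2 to 19.0 M reads. The 4 rRNA genes listed took a mean share of 2.05% under DMSO, 4.23% under DSF, 2.38% under NSM and 7.29% under DSF+NSM, and their part in the results was not tested. All 10 myeloid marker genes examined had a group mean of at least 10 in every group, with a summed level of 71511 to 81241 under DMSO, 50436 to 56964 under DSF, 34980 to 42187 under NSM and 36255 to 37354 under DSF+NSM. Most of that sum was myeloperoxidase, MPO, with group means of 58058, 31892, 16981 and 21249, and the other 9 markers summed to 17349 to 18600 under DMSO, 20335 to 21120 under DSF, 20526 to 23557 under NSM and 14221 to 17202 under DSF+NSM. Of 11 markers of other cell types, 6 were listed, and they summed to 125 to 133 under DMSO, 152 to 162 under DSF, 169 to 208 under NSM and 214 to 482 under DSF+NSM. The B cell marker MS4A1 was at 0, and the part of these levels in the results was not tested. NSM replicate 3 stood apart from its group, with Spearman correlations across genes of 0.952 and 0.959 with NSM replicates 1 and 2, against 0.981 to 0.996 for the other pairs within groups. Where its removal ends or gains a call, turns a sign or moves a called value by over 1.5 times, both values are given. In bulk RNA, fewer cells that express a gene and less of its RNA per cell cannot be told apart.

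Genes were tested with limma on log2(normalized count + 1), in 1 fit of all 12 libraries and 13502 genes, and a call needed a p below 0.05 after Benjamini-Hochberg adjustment. Fold changes are given on that scale, which understates the change of low genes. In DSF+NSM against DMSO, 8 of the 9 genes were called higher and none lower, where 28.3% of all genes tested were called higher and 24.5% lower. UBA1 was the exception. With libraries scaled to equal sums, 3 were called higher and UBA1 lower, as detailed further on. After NSM, 3 of 9 were higher and 3 lower, against a background of 25.4% higher and 23.7% lower, and after DSF 3 of 9 were higher and none lower, against 11.9% higher and 5.95% lower. The genes were chosen with earlier results of these data known, so setting their counts beside the background is a description.

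**Figure D1:**
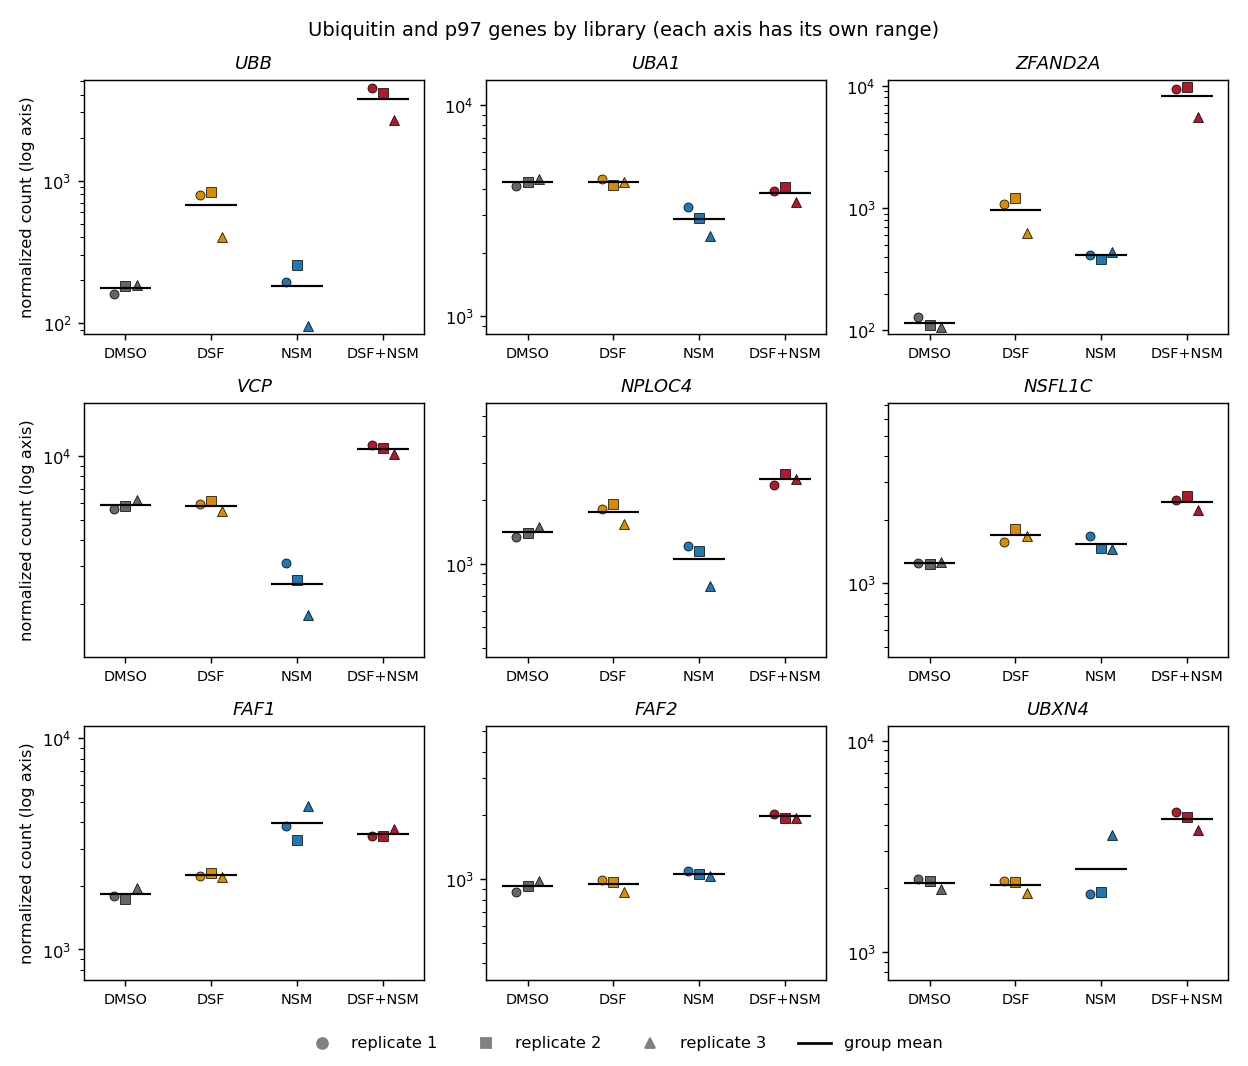
Normalized count of each gene (log axis, its own range in each panel) in the 12 libraries, by treatment. Symbols are single libraries and lines are group means, and in DSF+NSM every gene except UBA1 and FAF1 lies above all libraries of the other groups.

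ZFAND2A showed the largest response among the 9 genes. Its normalized counts in replicates 1, 2 and 3 were 129, 111 and 107 in DMSO, 1085, 1200.1 and 619 in DSF, 410.3, 384 and 436 in NSM, and 9363, 9710 and 5523 in DSF+NSM. The 4 groups did not overlap and were ordered DMSO, NSM, DSF and DSF+NSM, and each neighbouring pair differed in the test. ZFAND2A rose 8.01-fold with DSF (log2 3.00, SE 0.25, limma adjusted p = 1.04e-05), 3.53-fold with NSM (log2 1.82, SE 0.25, limma adjusted p = 0.000101) and 68.4-fold with DSF+NSM (log2 6.10, SE 0.25, limma adjusted p = 3.91e-09). It was also higher in DSF than in NSM, by 1.18 on the log2 scale (limma adjusted p = 0.00283). Per kilobase of transcript, ZFAND2A had the lowest mean level of the 9 genes in DMSO, 132 ± 13.4 (SD, n = 3), and the highest in DSF+NSM, 9338 ± 2647. Replicate 3 was the lowest of its group in DSF and in DSF+NSM, and NSM replicates lay within 384 to 436. ZFAND2A shares 209 exon bases with ZFAND2A-DT on the opposite strand, and the library kit does not keep the strand. The part of reads from these bases in the ZFAND2A level was not tested.

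The ZFAND2A gene lies on the minus strand of chromosome 7 (GRCh38, chr7:1152071-1160759, GENCODE release 44). The region upstream of its start was examined for heat shock factor motifs, since heat shock factor 1 binds alternating GAA and TTC units and its known targets, given below, were measured in the same libraries. Units facing each other at the usual spacing read GAANNTTC or TTCNNGAA, and both spellings read the same on either strand. In the 250 bases before the start of the reference (MANE Select) transcript, either spelling occurred in 9.35% of 19060 genes and 3 alternating units in 0.315%. Of the 9 genes, 3 held a pair (ZFAND2A, FAF1 and FAF2), 6 held none and 0 held 3 units. The windows of ZFAND2A and FAF1 are printed as examples of a pair in its surroundings, and for FAF2 the pair alone. They are written 5′ to 3′ on the gene's strand, with the pair in capitals.
ZFAND2A, chr7:1160197-1160446, minus strand, crossed by an exon of a longer non-coding transcript of the same gene: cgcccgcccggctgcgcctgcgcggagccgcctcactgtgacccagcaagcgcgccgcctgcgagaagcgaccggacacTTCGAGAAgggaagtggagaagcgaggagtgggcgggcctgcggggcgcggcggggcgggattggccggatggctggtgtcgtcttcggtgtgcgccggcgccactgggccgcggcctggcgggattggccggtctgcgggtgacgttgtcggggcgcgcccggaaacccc
FAF1, chr1:50960268-50960517, minus strand: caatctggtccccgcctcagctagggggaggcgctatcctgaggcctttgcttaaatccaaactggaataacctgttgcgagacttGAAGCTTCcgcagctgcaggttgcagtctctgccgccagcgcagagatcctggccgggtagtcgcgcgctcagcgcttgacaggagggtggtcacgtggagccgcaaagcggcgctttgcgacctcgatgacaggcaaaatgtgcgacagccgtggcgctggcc
The ZFAND2A pair, TTCGAGAA, spans bases 171 to 164 before the start, and the FAF1 pair, GAAGCTTC, bases 164 to 157. The FAF2 pair, TTCCGGAA, lies 180 to 173 bases before the start and its letters also hold the GGAA core of ETS factor sites. A match describes the letters in the window and no binding was measured.

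UBB, which encodes a head-to-tail chain of ubiquitin units, had the next largest response. It lies on chr17:16380798-16382745 (plus strand). Its normalized counts in replicates 1, 2 and 3 were 161, 184 and 186 in DMSO, 786, 827 and 399 in DSF, 195, 255 and 96.3 in NSM, and 4422, 4102 and 2668 in DSF+NSM. The DSF and DSF+NSM libraries lay above all DMSO and NSM libraries, and the DMSO values fell inside the NSM range. UBB rose 3.59-fold with DSF (log2 1.85, SE 0.35, limma adjusted p = 0.00407) and 20.5-fold with DSF+NSM (log2 4.36, SE 0.35, limma adjusted p = 9.23e-07). For NSM alone the log2 difference was -0.07, with a 95% confidence interval of -0.83 to 0.69 (limma adjusted p = 0.885). The sign of that difference rests on NSM replicate 3: it was 0.33 without this library (limma adjusted p = 0.368), and 0.37 in replicates 1 and 2 of every group (limma adjusted p = 0.0137). UBB was lowest in replicate 3 of each drug group.

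The level of UBB is uncertain. Of the 43-base stretches of its transcript, the read length of the study, 40.2% also occur in other genes, its pseudogenes UBBP4 and UBBP1 among them, so reads can be exchanged between genes in counting. Stretches were compared on the transcripts' own strand only, here and for the genes below, so matches on the opposite strand are not in these shares. A gene on the opposite strand shares 461 exon bases with UBB, and the library kit does not keep the strand.

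RPS27A, which encodes ubiquitin fused to a ribosomal protein, was measured beside UBB. Replicates 1, 2 and 3 had normalized counts of 22009.8, 21068 and 18771 in DMSO, 18505, 18193.5 and 20919 in DSF, 31311, 31349 and 27869.7 in NSM, and 35395, 34611 and 29323 in DSF+NSM. DSF overlapped DMSO, and the NSM and DSF+NSM libraries overlapped each other above both. RPS27A was called higher in NSM by 0.55 (limma adjusted p = 0.00179) and in DSF+NSM by 0.68 on the log2 scale (limma adjusted p = 0.000332), and with libraries scaled to equal sums the DSF+NSM difference from DMSO turned to -0.10 (limma adjusted p = 0.395). Of the 43-base stretches of RPS27A, 55.0% occur in other genes, mostly its pseudogenes.

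UBA1 encodes the main ubiquitin-activating E1 enzyme and was the member not called in DSF+NSM. It lies on chrX:47190861-47215128 (plus strand). Its normalized counts were 4141, 4318 and 4468 in DMSO, 4484, 4195 and 4330.0 in DSF, 3287, 2916 and 2410 in NSM, and 3907, 4088 and 3490.0 in DSF+NSM. The DSF libraries overlapped DMSO, and the NSM libraries lay below all others. UBA1 fell by 0.60 on the log2 scale with NSM (SE 0.12, limma adjusted p = 0.00167). The difference of DSF+NSM from DMSO was -0.17 (95% confidence interval -0.44 to 0.09, limma adjusted p = 0.258), although the 3 DSF+NSM libraries were below the 3 DMSO libraries. DSF+NSM was above NSM by 0.42 (limma adjusted p = 0.0171), a call lost without DSF+NSM replicate 1 (limma adjusted p = 0.0577) or 2 (limma adjusted p = 0.0728).

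VCP encodes p97 itself and, with the values as deposited, moved in opposite directions with NSM alone and with the drug combination. It lies on chr9:35053928-35072668 (minus strand), and 471 of its exon bases are shared with a same-strand gene model, in which 11.6% of its 43-base stretches occur. Its normalized counts were 5607, 5801 and 6186 in DMSO, 5897, 6098 and 5479 in DSF, 3101, 2583 and 1773 in NSM, and 11245, 10854 and 10205 in DSF+NSM. DMSO and DSF overlapped, all NSM libraries were below them, and all DSF+NSM libraries were above them. VCP fell by 1.27 on the log2 scale with NSM (SE 0.17, limma adjusted p = 5.91e-05), to 2486 ± 669 from 5864 ± 294 (SD, n = 3), and rose 1.84-fold with DSF+NSM (log2 0.88, limma adjusted p = 0.000761). The DSF difference was -0.01, with a 95% confidence interval of -0.37 to 0.35. With equal library sums, the VCP difference between DSF+NSM and DMSO was 0.093 (limma adjusted p = 0.631). NSM replicate 3 was the lowest library, and without it the fall was -1.05 (limma adjusted p = 3.34e-07).

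NPLOC4, whose product NPL4 forms the ubiquitin-binding cofactor of p97 together with UFD1, was likewise lowest in NSM and highest in DSF+NSM. It lies on chr17:81556887-81648465 (minus strand). Its normalized counts were 1337, 1400.1 and 1489 in DMSO, 1810.2, 1906 and 1545 in DSF, 1213, 1147 and 786 in NSM, and 2351, 2653 and 2528 in DSF+NSM. No groups overlapped. NPLOC4 rose 1.78-fold with DSF+NSM (log2 0.83, SE 0.16, limma adjusted p = 0.000843) and was 2.43-fold above NSM (log2 1.28, limma adjusted p = 7.48e-05). It fell by 0.45 with NSM (limma adjusted p = 0.0335), a call that was lost without each DMSO library in turn (limma adjusted p = 0.0585, 0.0782 and 0.103), and without NSM replicate 3 the difference was -0.25 (limma adjusted p = 0.0455). The DSF difference of 0.31 was not called (95% confidence interval -0.03 to 0.66, limma adjusted p = 0.199), and was called without NSM replicate 3 (limma adjusted p = 0.0142). UFD1, listed as UFD1L, was called higher with DSF by 0.45 (limma adjusted p = 0.0308, and 0.0568 to 0.134 without any 1 library of either group) and with DSF+NSM by 0.55 (limma adjusted p = 0.00352), and its NSM difference was -0.21 (limma adjusted p = 0.198). With equal library sums, the UFD1L difference between DSF+NSM and DMSO turned to -0.24 (limma adjusted p = 0.0774).

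NSFL1C encodes p47, the p97 cofactor of Golgi and ER membrane fusion. It lies on chr20:1442162-1473842 (minus strand) and shares 492 exon bases with SIRPB2 on the same strand. Its normalized counts were 1246, 1239 and 1260.3 in DMSO, 1571, 1803 and 1676 in DSF, 1672, 1471 and 1454 in NSM, and 2488, 2579.8 and 2228 in DSF+NSM. Every treated library exceeded the 3 DMSO libraries, DSF and NSM overlapped, and DSF+NSM lay above all. NSFL1C rose 1.94-fold with DSF+NSM (log2 0.96, SE 0.11, limma adjusted p = 1.80e-05). The smaller calls, 0.43 with DSF (limma adjusted p = 0.021) and 0.29 with NSM (limma adjusted p = 0.0455), depended on single libraries: the DSF call was lost without any DMSO library or without DSF replicate 2 or 3 (limma adjusted p = 0.0551 to 0.111), and the NSM call without any DMSO or DSF library, without NSM replicate 1 or 2, or without DSF+NSM replicate 1 or 2 (limma adjusted p = 0.0565 to 0.133).

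FAF1 and FAF2 encode UBX-domain adaptors that bring ubiquitinated substrates to p97, FAF2 at the ER and lipid droplets. FAF1 lies on chr1:50437028-50960267 (minus strand) and FAF2 on chr5:176447628-176510074 (plus strand). FAF1 had 1794, 1727 and 1953 normalized counts in DMSO, 2218.5, 2296 and 2210.2 in DSF, 3848, 3311 and 4745 in NSM, and 3429, 3444 and 3712 in DSF+NSM. The DSF libraries were above DMSO, and the DSF+NSM libraries fell within the NSM range. FAF1 rose 2.15-fold with NSM (log2 1.11, SE 0.13, limma adjusted p = 2.70e-05) and 1.93-fold with DSF+NSM (log2 0.95, limma adjusted p = 6.28e-05). Its DSF difference of 0.30 was not called (limma adjusted p = 0.131), and was called without NSM replicate 3 (limma adjusted p = 0.00988).

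FAF2 showed another pattern. Its normalized counts were 870.5, 929 and 983 in DMSO, 990.1, 968 and 871 in DSF, 1091, 1058 and 1033 in NSM, and 2032, 1950.3 and 1949 in DSF+NSM. DMSO and DSF overlapped, NSM lay just above them, and the DSF+NSM libraries were well above the rest. FAF2 rose 2.13-fold with DSF+NSM (log2 1.09, SE 0.11, limma adjusted p = 4.69e-06). Its differences were 0.02 with DSF (95% confidence interval -0.21 to 0.26) and 0.19 with NSM (95% confidence interval -0.04 to 0.43, limma adjusted p = 0.152).

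UBXN4, also called erasin, encodes an ER membrane protein that recruits p97 for ER-associated degradation. It lies on chr2:135741734-135785056 (plus strand). Its normalized counts were 2212, 2171 and 1987 in DMSO, 2174, 2134 and 1908 in DSF, 1888, 1914 and 3592 in NSM, and 4582, 4347 and 3771 in DSF+NSM. NSM replicate 3 lay close to the DSF+NSM libraries, while the other 2 NSM libraries lay below every DMSO library. UBXN4 rose 1.99-fold with DSF+NSM (log2 0.99, SE 0.21, limma adjusted p = 0.00149). The NSM difference of 0.15 (limma adjusted p = 0.576) was -0.16 without NSM replicate 3 (limma adjusted p = 0.191). DSF against NSM was -0.18 for UBXN4 (limma adjusted p = 0.488), and 0.12 without that library.

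**Figure D2:**
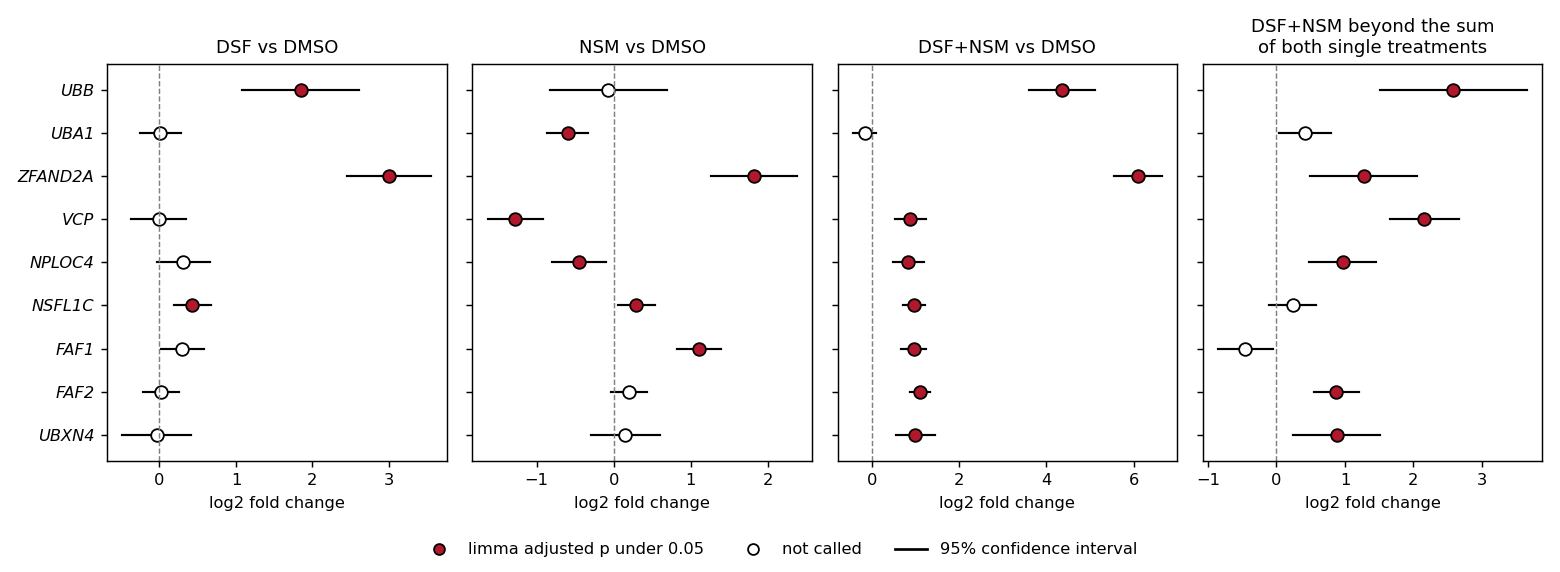
Log2 fold changes (points) with 95% confidence intervals (bars) for 9 genes in 3 comparisons with DMSO and in the interaction (the combined change less the added DSF and NSM changes). Filled points were called by limma, and the horizontal axes have different ranges. UBB and VCP have interactions above 2.

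Whether the combination differed from the sum of the single treatments was tested as an interaction on the log2 scale. It was called above 0 for 6 of the 9 genes (UBB, VCP, NPLOC4, FAF2, UBXN4 and ZFAND2A) and below 0 for none, where 12.1% of all genes were called above 0. For UBB it was 2.58 (SE 0.50, limma adjusted p = 0.00257), so that the DSF+NSM level was 5.99-fold the level that summed log2 changes give. For VCP it was 2.16 (SE 0.23, limma adjusted p = 9.73e-05), where the DSF difference was near 0 and the NSM change was a fall. For NPLOC4 it was 0.97 (SE 0.23, limma adjusted p = 0.00766) and for FAF2 0.87 (SE 0.15, limma adjusted p = 0.00144). The interaction of ZFAND2A was 1.27 (SE 0.36, limma adjusted p = 0.0205), and it was lost without DMSO replicate 1 (limma adjusted p = 0.0551), DSF+NSM replicate 1 (limma adjusted p = 0.0602) or DSF+NSM replicate 2 (limma adjusted p = 0.0595). The interaction of UBXN4 was 0.88 (limma adjusted p = 0.0423), and 1.19 without NSM replicate 3 (limma adjusted p = 7.05e-06), and the call was lost when any of 10 other libraries was left out (limma adjusted p = 0.0638 to 0.0992). For FAF1 the interaction was -0.45 and was not called (95% confidence interval -0.85 to -0.06, limma adjusted p = 0.0874). It was called below 0 without NSM replicate 2 (-0.58, limma adjusted p = 0.031), in replicates 1 and 2 alone (-0.41, limma adjusted p = 0.00624), with library weights (-0.27, limma adjusted p = 0.00715) and under equal library sums (-0.87, limma adjusted p = 0.00366).

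DSF+NSM was also compared with each drug alone, in comparisons that share libraries with those above. Against DSF, 8 of 9 genes were called higher, all except UBA1, where 21.7% of all genes were called higher. The differences ran from 0.52 for NPLOC4 (limma adjusted p = 0.0189, and 0.0834 without DSF replicate 3 or 0.0661 without DSF+NSM replicate 2) to 3.09 for ZFAND2A (limma adjusted p = 2.96e-06). Against NSM, 8 of 9 were called higher, all except FAF1, where the background was 20.3%, from 0.42 for UBA1 to 4.43 for UBB (limma adjusted p = 2.33e-06). Under equal library sums, 5 were called higher than in NSM and FAF1 lower (-0.67, limma adjusted p = 0.0011), and NSFL1C, UBXN4 and UBA1 were not called. Against DSF under that scaling, 3 stayed called higher (UBB, FAF2 and ZFAND2A) and UBA1 was called lower (-0.87, limma adjusted p = 5.59e-05). Between the single drugs, UBB, VCP, NPLOC4, ZFAND2A and UBA1 were higher in DSF and FAF1 was lower, against backgrounds of 23.4% and 21%. The VCP difference was 1.26 (limma adjusted p = 0.000117) and the FAF1 difference was -0.81 (limma adjusted p = 0.000453).

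The scaling of the libraries bears on the size of these changes. Under the authors' scaling the median gene had a log2 change of 0.03 in DSF+NSM against DMSO, whereas scaling to equal sums moved that median to -0.75, because the normalized counts of DSF+NSM libraries sum to more. Under equal sums, ZFAND2A (5.31, limma adjusted p = 9.12e-09), UBB (3.58, limma adjusted p = 2.62e-06) and FAF2 (0.31, limma adjusted p = 0.0278) stayed called higher in DSF+NSM against DMSO. VCP (0.093), NPLOC4 (0.049), NSFL1C (0.18), FAF1 (0.17) and UBXN4 (0.21) were no longer called, and UBA1 was called lower (-0.96, limma adjusted p = 1.78e-05). Relative to the median of all genes, VCP was 0.85 higher under the authors' scaling. In all genes tested, 53.6% of the calls in DSF+NSM against DMSO were higher under the authors' scaling and 16.7% under equal sums. RNA content per cell was not measured, so the data do not tell which scaling is nearer to amounts per cell.

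**Figure D3:**
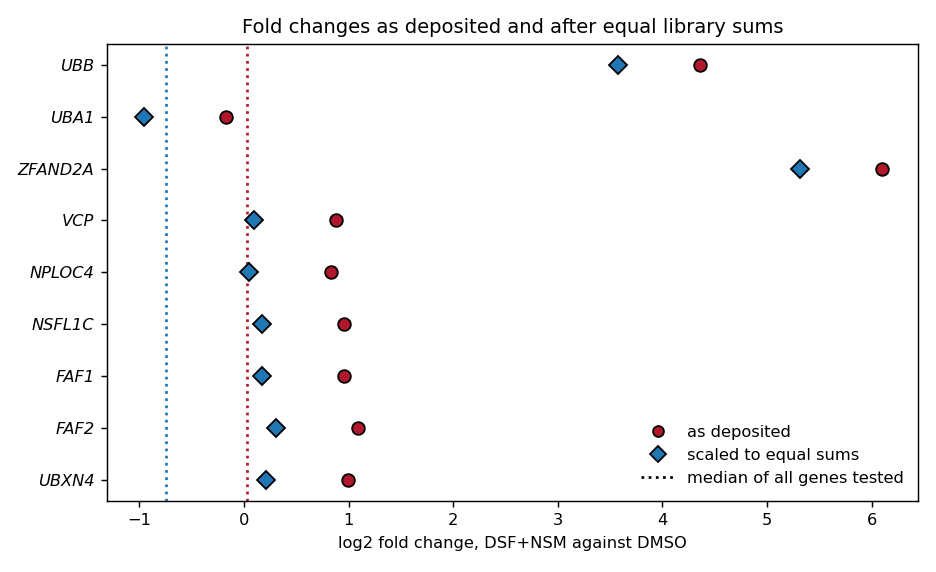
Log2 fold change of the 9 genes in DSF+NSM against DMSO with the values as deposited (circles) and after scaling every library to the same sum (diamonds). Dotted lines mark the median of all genes tested, at 0.03 and -0.75, and each gene moves left by about the distance between them.

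Ratios between 2 genes of a library do not depend on the scaling. Levels per kilobase of the reference transcript were used, and the ratios were compared as descriptions. The VCP to NPLOC4 ratio was 4.90, 4.85 and 4.86 in DMSO, 3.81, 3.74 and 4.15 in DSF, 2.99, 2.63 and 2.64 in NSM, and 5.59, 4.78 and 4.72 in DSF+NSM. It was lower in each single treatment than in DMSO, with no overlap, while the DSF+NSM libraries lay on both sides of the DMSO values. The VCP to UBA1 ratio was 1.30 ± 0.0202 (SD, n = 3) under DMSO, 1.28 ± 0.0930 under DSF, 0.815 ± 0.102 under NSM and 2.69 ± 0.137 under DSF+NSM. The ATPase transcript thus stood higher relative to that of the E1 enzyme in every DSF+NSM library than in any other library. The FAF1 to FAF2 ratio was 1.29 ± 0.0667 under DMSO, 1.57 ± 0.0976 under DSF, 2.47 ± 0.498 under NSM and 1.17 ± 0.0723 under DSF+NSM, so the balance of these 2 adaptors was farthest towards FAF1 in NSM.

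**Figure D4:**
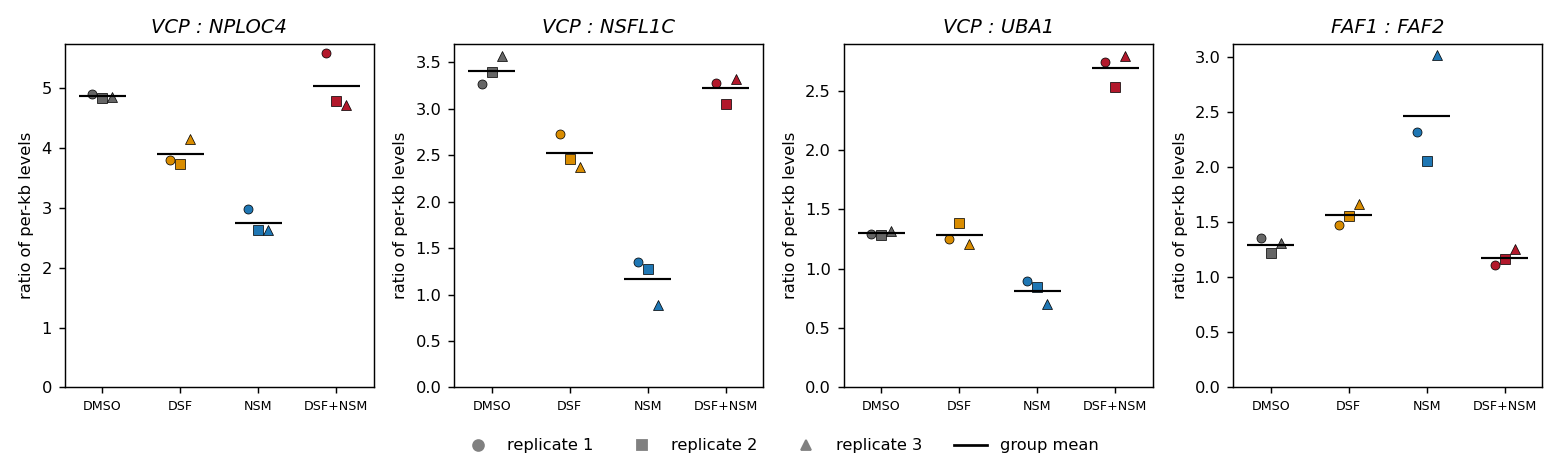
Ratios of per-kilobase levels within each library, by treatment (symbols are libraries, lines are group means, axes start at 0). VCP is lowest relative to NPLOC4, NSFL1C and UBA1 in NSM, and FAF1 is highest relative to FAF2 there.

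By level per kilobase, the order of the 9 genes in DMSO began with VCP (1566 ± 78.6, SD, n = 3) and UBA1 (1206 ± 45.9), followed by UBXN4 (563 ± 31.7), NSFL1C (459 ± 4.01), NPLOC4 (322 ± 17.4), FAF1 (268 ± 17.0), FAF2 (207 ± 12.6), UBB (189.9 ± 14.6) and ZFAND2A (132 ± 13.4). FAF2 and UBB did not differ beyond their spread, and the UBB level carries the uncertainty given above. In DSF+NSM the order began with ZFAND2A (9338 ± 2647) and UBB (3999 ± 1001), which had been last, followed by VCP (2875 ± 140). The summed normalized counts of the 9 genes were 17999 ± 571 under DMSO, 20494 ± 1276 under DSF, 16023 ± 874 under NSM and 41207 ± 4445 under DSF+NSM.

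Other genes of the pathway were read from lists, and the shares of all genes called higher and lower, 28.3% and 24.5% in DSF+NSM, 25.4% and 23.7% in NSM and 11.9% and 5.95% in DSF, are the background of each count. The lists too were chosen with earlier results of these data known. All list counts and medians are given for the values as deposited, and were not redone under equal library sums. That scaling moves the median gene in DSF+NSM against DMSO from 0.03 to -0.75, so the counts hold for the values as deposited. Of 34 genes listed as p97 cofactors and tested, 19 were called higher and none lower in DSF+NSM. In NSM 18 were higher and 2 lower, and in DSF 5 were higher and 1 lower. The list includes 6 of the genes above. ZFAND2A is counted among them, although it is described above by its association with the proteasome. The share called higher was 55.9% in DSF+NSM and 52.9% in NSM, and its 14.7% in DSF was near the background. The median log2 change of that list was 0.56 in DSF+NSM, 0.60 in NSM and 0.08 in DSF, beside 0.03, 0.01 and 0.05 for all genes. Compared with NSM, 9 of these listed genes were called higher in DSF+NSM and 7 lower, with a median of -0.08. The 26.5% called higher compare with 20.3% of all genes, and of all genes called in that comparison 52.5% were higher. Their interaction was called above 0 for 7 (20.6%, beside 12.1% of all genes) and below 0 for 7, with a median of -0.16. Of all genes with a called interaction, 46.3% were above 0. The largest changes in DSF+NSM after ZFAND2A were those of PLAA (1.61, limma adjusted p = 3.65e-05), a ubiquitin-binding p97 partner, and UBXN1 (1.54, limma adjusted p = 6.62e-06), a UBX adaptor that was also called higher in NSM (1.47, limma adjusted p = 1.52e-05) and DSF (0.64, limma adjusted p = 0.0167). Among the 7 AN1 zinc finger genes, 6 were called higher in DSF+NSM, 5 in NSM and 2 in DSF. After ZFAND2A came ZFAND3 (1.79 in DSF+NSM and 1.87 in NSM, limma adjusted p = 4.22e-07 and 7.01e-07) and ZFAND5 (1.41 in DSF+NSM, limma adjusted p = 1.69e-05), which binds ubiquitin and the proteasome.

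The enzymes that activate and pass on ubiquitin were read from further lists. Of 10 E1 enzymes for ubiquitin and related modifiers, UBA1 included, 1 was called higher and 3 lower in DSF+NSM, none higher and 4 lower in NSM, and none higher and 2 lower in DSF, and the list's median was -0.39 in DSF+NSM, where the 30% called lower compare with 24.5% of all genes. Those called lower in DSF+NSM included NAE1, a subunit of the NEDD8 E1 (-1.52, limma adjusted p = 0.000539), and UBA2, a subunit of the SUMO E1 (-0.47, limma adjusted p = 0.0243). Of 34 E2 conjugating enzymes, 9 were called higher and 9 lower in DSF+NSM, 11 higher and 4 lower in NSM, and 1 higher and 3 lower in DSF. In DSF+NSM, 26.5% of these enzymes in each direction was near the share of all genes. UBE2D1 (-1.74, limma adjusted p = 0.00368) and UBE2T (-1.39, limma adjusted p = 0.000172) were lower in DSF+NSM, and UBE2W, which ubiquitinates protein N termini, was higher (1.43, limma adjusted p = 8.60e-06).

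Genes downstream of ubiquitin and of protein damage were read in the same way. Of 14 ubiquitin receptors, 10 were called higher and 3 lower in DSF+NSM, 8 and 2 in NSM, and 5 and none in DSF. The share called higher in DSF+NSM was 71.4%, beside 28.3% of all genes, and the 21.4% called lower was near the background of 24.5%. SQSTM1, the p62 autophagy receptor, was higher by 4.55 in DSF+NSM, 2.38 in DSF and 2.12 in NSM (limma adjusted p = 5.56e-09, 9.45e-06 and 5.08e-06), and OPTN, another autophagy receptor, by 4.09 in DSF+NSM from a mean of 4.95 normalized counts in DMSO. ADRM1, the proteasome's ubiquitin receptor, was higher by 2.24 in DSF+NSM (limma adjusted p = 2.55e-07). Of 11 genes of the NFE2L1 pathway, in which p97 releases the factor NFE2L1 from the ER to drive proteasome genes, 8 were called higher and 1 lower in DSF+NSM, 3 higher and 4 lower in NSM, and 3 higher and 3 lower in DSF. The share called higher was 72.7% in DSF+NSM, beside 28.3% of all genes, and 27.3% in NSM, near the background of 25.4%. The proteasome genes PSMC4 and PSMD11 were higher in DSF+NSM by 1.80 and 1.33 (limma adjusted p = 1.27e-06 and 4.98e-07), and HERPUD1, an ER stress gene, by 1.72 (limma adjusted p = 2.28e-07).

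Of 10 targets of heat shock factor 1, all 10 were called higher in DSF+NSM, with a median log2 change of 4.33, whereas in NSM none was called higher and 5 lower, and in DSF 4 were higher and 2 lower. DNAJB1, an HSP40 co-chaperone, had mean normalized counts of 2734 under DMSO, 22366 under DSF, 2971 under NSM and 586323 under DSF+NSM, and rose with DSF by 2.96 (limma adjusted p = 1.28e-05) and with DSF+NSM by 7.73 (limma adjusted p = 6.75e-10). HSPA1A and HSPA1B, near-identical HSP70 copies between which reads may be split, were higher in DSF+NSM by 9.74 and 9.12 and lower in NSM by 2.16 and 1.67.

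Over the 12 libraries, the genes whose log2 levels were most like each of 4 members were listed by Pearson's r, as a description, since libraries of a treatment share its effect. Those closest to ZFAND2A were FOS (0.996), JUN (0.991) and ABTB2 (0.991). TUBB3 (0.991), SRXN1 (0.989) and KCNN1 (0.988) were closest to UBB, PSMD3 (0.990), PRDX1 (0.987) and BIN3 (0.987) to VCP, and ATP6V0D1 (0.983), PI4K2A (0.978) and CD300LB (0.977) to NPLOC4. Among the 9 genes, the closest pair was NSFL1C and ZFAND2A (0.979) and the most opposed pair FAF1 and UBA1 (-0.801).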

How the data were processed

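RNA of SHI-1 cells of 4 groups (3 libraries each) was analysed. The labels say that the authors prepared libraries with the TruSeq RNA v2 kit, and the supplementary methods name poly(A) selection, 43-base read pairs, trimmomatic, STAR, Salmon, NCBI GRCh38 and DESeq2. The submitters' processing notes instead name bcl2fastq 2.19, Bowtie2, Picard, featureCounts and hg38, so the counting tool is unsettled. The deposited signal is a normalized count for each gene, in a table for each library. The header names 24 libraries, and 12 are analysed. Whole multiples of the library's step (tolerance 0.01 of a step) made up 32.2% to 32.9% of the values above 0, so whole reads could not be recovered and count models were not used.

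The filter asked for a value of 10 or more in 3 or more libraries. log2(value + 1) was fitted with limma 3.58.1 in R 4.3.3 (trend, robust, 4 group means, no replicate block, threshold 0.05). The step was tested on simulated data. Python 3.11.15, numpy 2.4.6, pandas 2.3.3 and matplotlib 3.10.9 were used otherwise. Positions and transcript lengths came from GENCODE 44, and upstream windows from hg38.

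The alternatives were pseudocounts of 0.1 and 10, no filter, at least 10 in every library, rescaling by the median of ratios, by a trimmed mean (trims 0.3 and 0.05) or to equal sums, only the groups compared, library weights, a replicate block, and single libraries left out. The use of replicates 1 and 2 alone was chosen after seeing the data. The members and lists were chosen with earlier results of these data known. Named are the members, RPS27A, UFD1L, the 3 called genes with the largest change in DSF+NSM against DMSO of each list (those already named counted), and the 3 genes most like each of ZFAND2A, UBB, VCP and NPLOC4. Some results that meet this rule are not reported here. MS4A1 is named as a marker, and the pair NSFL1C and ZFAND2A and the pair FAF1 and UBA1 were picked after their values were seen.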

Additional observations from a re-analysis of the deposited data

Results flagged for a closer look

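The combined change and the added changes of both drugs differed in the limma interaction test for 6 of the 9 genes. On the log2 scale the excess was 2.58 for UBB (limma adjusted p = 0.00257), 2.16 for VCP (limma adjusted p = 9.73e-05), 1.27 for ZFAND2A (limma adjusted p = 0.0205), 0.97 for NPLOC4 (limma adjusted p = 0.00766), 0.88 for UBXN4 (limma adjusted p = 0.0423) and 0.87 for FAF2 (limma adjusted p = 0.00144). With equal library sums, the calls of UBB (2.16), VCP (1.74) and FAF2 (0.46) stayed, and those of ZFAND2A (0.85), NPLOC4 (0.55) and UBXN4 (0.46) did not, and FAF1 was called below 0 (-0.87, limma adjusted p = 0.00366). What accounts for these differences was not tested.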

How the results depend on the processing

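Over 63 comparisons of the 9 genes and 23 alternatives, 1440 values were obtained, of which 1351 stayed on their side of the threshold (24 of them uncalled values whose sign turned), 55 lost the call, 24 gained it and 10 that were called under either setting changed sign. Genes called after DSF against DMSO numbered 3 of 9 and became 5 with only the groups compared, with library weights or with replicates 1 and 2 alone, and 2 to 5 when 1 library was left out. Under equal sums, 4 of 9 were called in DSF+NSM against DMSO and 4 against DSF, in place of 8 each. Leaving out 1 library gave 4 to 6 for NSM, 8 for DSF+NSM against DMSO, 7 to 8 for DSF+NSM against DSF and against NSM, 6 for DSF against NSM and 4 to 6 for the interaction.

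Counts over all genes moved more. DSF against DMSO had 2405 calls, and 7150 with only the groups compared, 8171 with library weights, 6381 with replicates 1 and 2 and 911 to 5551 with 1 library left out. With library weights the calls were 11107 for NSM against DMSO (6635 without weights), 9120 for DSF+NSM against DSF (5818), 9782 for DSF+NSM against NSM (5212), 10369 for DSF against NSM (5991) and 8933 for the interaction (3527). With only the groups compared they were 2483 for DSF+NSM against NSM and 3886 for DSF against NSM, and with replicates 1 and 2 alone 7823 for DSF+NSM against NSM and 7130 for the interaction, which ranged from 2569 to 6175 with 1 library left out. Leaving out 1 library gave 5416 to 8076 for NSM, 5974 to 9130 for DSF+NSM, 4656 to 8108 against DSF, 3632 to 6624 against NSM and 4582 to 7045 for DSF against NSM.

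Signs turned as follows on the log2 scale. With library weights and with replicates 1 and 2 alone, NSM against DMSO was 0.50 and 0.37 for UBB and -0.16 and -0.20 for UBXN4, and DSF against NSM was 0.14 and 0.18 for UBXN4. Under equal sums, DSF+NSM against DSF was -0.16 for NPLOC4, -0.16 for NSFL1C, -0.033 for FAF1 and -0.59 for UFD1L. DSF+NSM against DMSO was -0.10 for RPS27A and -0.24 for UFD1L, and DSF+NSM against NSM was -0.091 for UBA1 and -0.38 for RPS27A. The cause was not tested. Whether equal replicate numbers pair the libraries was not settled. In 18 pairs of the same number, deviations from the group means correlated at -0.06 to 0.28 (median 0.057), 2 of them over 0.1. In 36 pairs of different number they correlated at -0.23 to 0.24 (median -0.026), 3 of them over 0.1. A replicate block ended the call of NSFL1C in NSM (limma adjusted p = 0.0625) and the UBXN4 interaction (limma adjusted p = 0.0546), which left 5 genes called in NSM and 5 in the interaction. Values near the smallest step, such as those of OPTN in DMSO, are imprecise at this depth.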
